A study of Oryza sativa with 4 samples.

Results

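The YABBY genes of rice (Oryza sativa) were examined in leaves of 3-week-old wild-type (WT) plants and of plants that overexpress OsBIERF3 (OsBIERF3-OE), which encodes an ERF-type transcription factor, a class first known from ethylene responses. All plants were grown without a stress treatment, and 2 arrays were measured per genotype on a 1-colour Affymetrix rice array. The labels do not give the promoter that drives OsBIERF3, the number of transgenic lines or whether leaves were pooled. No value of OsBIERF3 was used, and the genotypes are taken as labelled without that check. Members were all genes that the RefSeq gene table lists under one of the names YAB1 to YAB7, of 17905 genes named on the array. All 7 names led to a gene, and 6 of the 7 genes had at least 1 probe set. No probe set was mapped to YAB3 (LOC4349074), and its level was not analysed here.

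YABBY proteins are transcription factors of seed plants with a zinc finger near one end and a helix-loop-helix region, the YABBY domain, near the other. In Arabidopsis they act in lateral organs, where several of them set the identity of the lower leaf side and promote growth of the blade. In rice the family has roles in leaf, vascular and flower development, and DL, its best known member outside the 7 genes, is needed for the leaf midrib and the carpel. Several rice members carry clashing names, because one set of names was written OsYAB and another OsYABBY. YAB3 is also listed as OsYAB4, YAB4 as OsYAB7, YAB5 as OsYAB3 and YAB6 as OsYAB5. The names used here are those that match the OsYABBY numbers, with the locus given at first use.

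In OsBIERF3-OE leaves YAB5 rose from a signal not above background to 125.3 ± 61.3, at least 4.61-fold, and YAB2 rose 1.71-fold, from 388.1 ± 45 to 663.5 ± 78.6 (SD, n = 2 each). YAB4 also passed the test, but its signal was not above background on any array. YAB1 and YAB6, both bright, did not pass. YAB7 was too dim to be tested. By limma with Benjamini-Hochberg adjustment at 0.05, 3 of the 5 YABBY genes tested passed, all higher in OsBIERF3-OE. Of all probe sets tested, 24.2% passed. Over all genes tested, each read by its brightest probe set, 31.8% passed, 17.2% higher and 14.5% lower. YAB4 and YAB5 were tested only because of their OsBIERF3-OE signals, since their WT signals alone lay below the filter of 12.3, so the count of 3 in 5 is a description and carries no weight as a share.

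The signals are the deposited intensities per probe set on a linear scale. Background was set per array at the highest of 33 control probe sets not aimed at a rice gene, called no-target controls here, which read 25.1 to 28.0. Signals of different probe sets are not compared as levels, because probe sets differ in how strongly they bind. Precision is limited by having 2 arrays per genotype. The leaf extracts hold many cell types, so more cells of a type and more RNA per cell cannot be told apart.

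**Figure D1:**
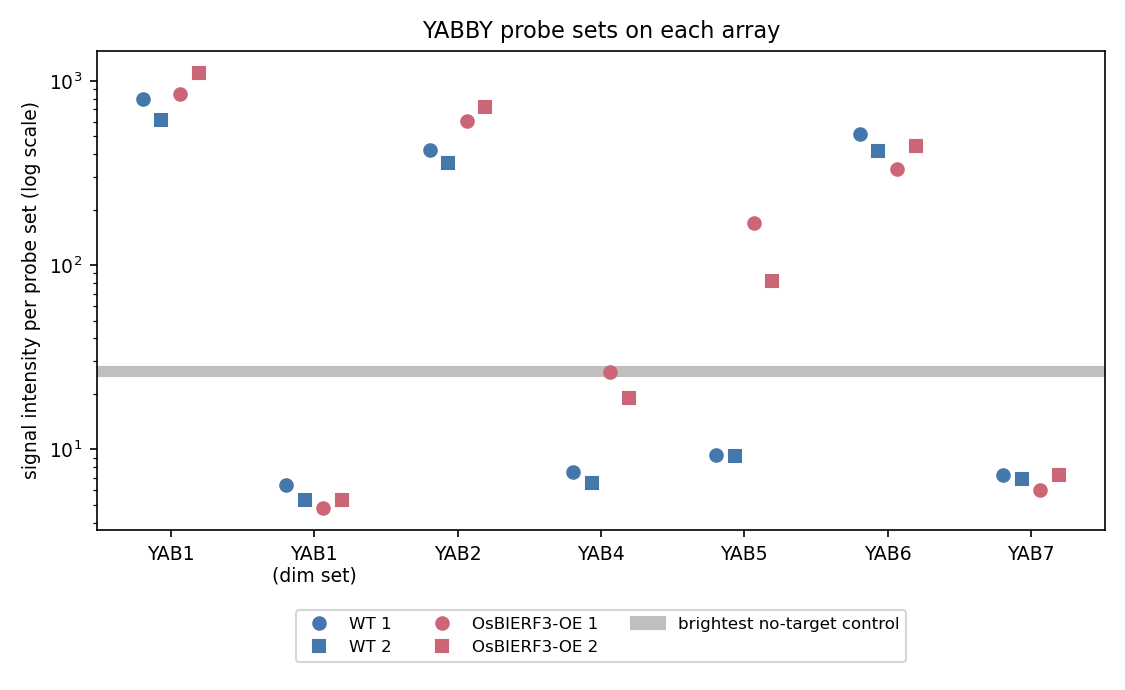
Signal intensity on a log axis for the 7 YABBY probe sets, with 1 point per array (blue, WT; red, OsBIERF3-OE; circles, replicate 1; squares, replicate 2) and the range of the brightest no-target control in grey. YAB1, YAB2 and YAB6 lie well above the grey band on all 4 arrays, YAB5 is above it on both OsBIERF3-OE arrays and below it on both WT arrays, and the other probe sets are not above their own array's control.

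YAB5 (LOC4336518; TONGARI-BOUSHI1 in the rice literature, a gene that organises the spikelet meristem) had signals of 9.33 and 9.24 on the WT arrays and 168.6 and 81.9 on the OsBIERF3-OE arrays. The genotypes did not overlap. Both WT signals were below the no-target controls and both OsBIERF3-OE signals were above them. The fitted log2 change was 3.66 (SE 0.35, 95% interval 2.78 to 4.54; limma adjusted p = 0.00359). Because WT was not above background, the measured quantity is the bound of at least 4.61-fold. That bound compares mean log2 signals and allows for the WT floor, but not for the spread between the OsBIERF3-OE arrays. The fitted log2 change was 2.20 (SE 0.32) with dim signals raised to the no-target controls. The OsBIERF3-OE arrays differed more from each other than the WT arrays did, and the log2 change was 3.14 when replicate 1 of OsBIERF3-OE was omitted and 4.18 when replicate 2 was. YAB5 passed under each of the 11 alternatives run, with limma adjusted p from 0.00153 to 0.0183.

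YAB2 (LOC4333584, also FIL2) had signals of 419.9 and 356.3 in WT and 608.0 and 719.1 in OsBIERF3-OE. All 4 arrays were far above background and the genotypes did not overlap. The log2 change was 0.77 (SE 0.15, 95% interval 0.40 to 1.15; limma adjusted p = 0.022). A larger fitted rise was found for 9.04% of the tested probe sets, so a change of this size was common on these arrays. The call rested on particular arrays: without WT replicate 2 the change was 0.65 with a limma adjusted p of 0.0995, and without OsBIERF3-OE replicate 2 it was 0.65 with 0.0863.

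YAB1 (LOC4342449, also FIL1) has been linked in rice to feedback control of gibberellin synthesis. Its brighter probe set, of a type that can bind several transcripts, read 791.2 and 615.8 in WT and 842.4 and 1108.1 in OsBIERF3-OE. The genotypes did not overlap, but the lower OsBIERF3-OE array lay close to the higher WT array. The log2 change was 0.47 (SE 0.19, 95% interval -0.02 to 0.96; limma adjusted p = 0.141), which did not pass. A larger fitted rise was found for 15.8% of the tested probe sets. A second YAB1 probe set gave 6.44, 5.28, 4.79 and 5.29 on the 4 arrays, WT first. It was below the no-target controls on each of them and below the filter, so it gave no usable value. Averaging it with the brighter one lowered the log2 change of YAB1 to 0.13.

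YAB6 (LOC4352818) had signals of 517.3 and 414.2 in WT and 330.8 and 441.0 in OsBIERF3-OE, and the genotypes overlapped. Its log2 change was -0.28 (SE 0.19, 95% interval -0.77 to 0.21; limma adjusted p = 0.356). The interval holds changes of either sign, and the change was 0.01 when hybridization controls set the scale of each array. A larger absolute change was found for 52.1% of the tested probe sets.

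YAB4 (LOC4330130), reported in rice from developing vascular tissue, had signals of 7.57 and 6.57 in WT and 26.3 and 19.1 in OsBIERF3-OE. The genotypes did not overlap, and the fitted log2 change was 1.67 (SE 0.20; limma adjusted p = 0.00646). No array was above its no-target control, so no fold is given. With dim signals raised to that control the change was 0.10 and did not pass (limma adjusted p = 0.244). Its mean log2 signal of 3.65 lay just above the filter at 3.63, and without either OsBIERF3-OE array it fell below the filter and was not tested. YAB7 (LOC9268430) gave 7.28, 6.92, 6.0 and 7.28 on the same arrays, WT first. It was below the controls on every array and below the filter, and no change could be measured.

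**Figure D2:**
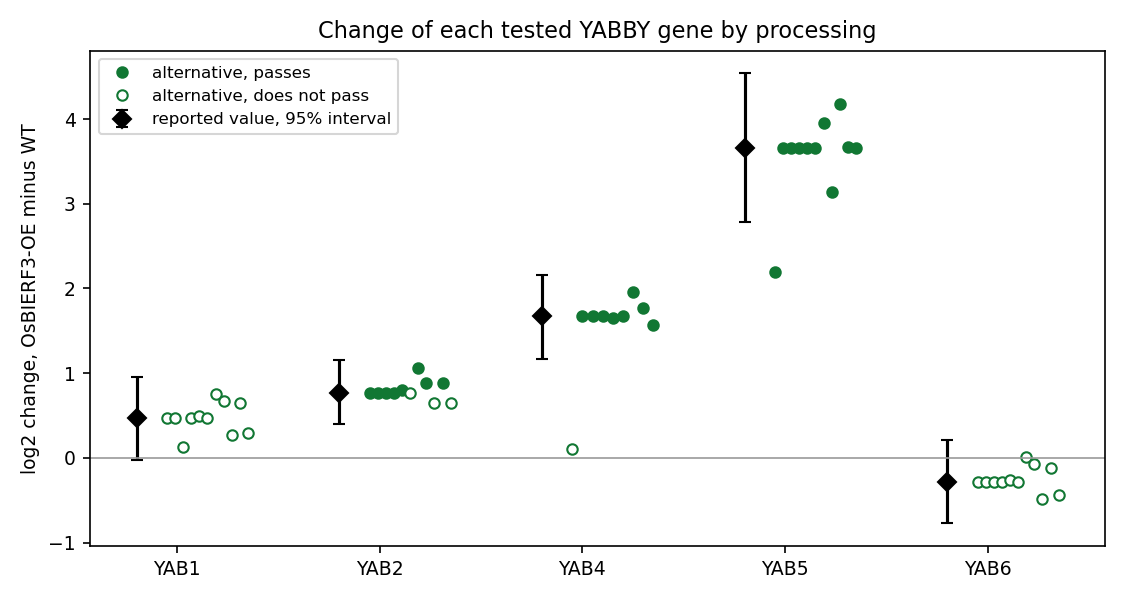
Log2 change (OsBIERF3-OE minus WT) of the 5 YABBY genes tested. Black diamonds with 95% intervals are the reported fits, and green points are the processing alternatives, filled where the limma adjusted p is under 0.05. All YAB5 points are filled and lie between 2.20 and 4.18, YAB2 has filled and open points between 0.65 and 1.06, and the lone open YAB4 point at 0.10 is the setting with dim signals raised to background.

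The 3 bright genes can be compared within each array, where a scaling of the whole array cancels. The log2 signal of YAB2 minus that of YAB6 was -0.30 and -0.22 in WT and 0.88 and 0.71 in OsBIERF3-OE. Only the shift between genotypes has a meaning here, since the probe sets differ in binding. That shift was 1.05, with WT at -0.26 ± 0.06 and OsBIERF3-OE at 0.79 ± 0.12 (SD, n = 2 each). YAB1 minus YAB6 was 0.61 and 0.57 in WT and 1.35 and 1.33 in OsBIERF3-OE, a shift of 0.75. The replicates of each genotype were close together, at 0.59 ± 0.03 and 1.34 ± 0.01 (SD, n = 2 each). YAB2 minus YAB1 was -0.91 and -0.79 in WT and -0.47 and -0.62 in OsBIERF3-OE, a shift of 0.30. All 3 pairs of the bright genes were compared, and YAB2 minus YAB1 follows from the other 2, so the pairs are not separate observations. In each the genotypes did not overlap, and the exact two-sided permutation p was 0.333, the smallest that 2 arrays against 2 allow. Any pair of probe sets without overlap gives this p, and the share of such pairs over all probe sets was not computed.

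**Figure D3:**
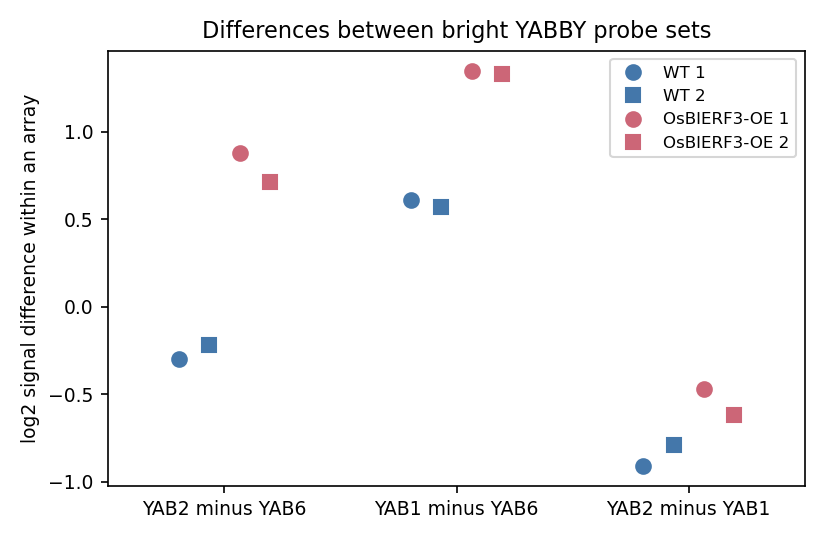
Differences in log2 signal between pairs of bright YABBY probe sets within an array, with 1 point per array (blue, WT; red, OsBIERF3-OE; circles, replicate 1; squares, replicate 2). Both OsBIERF3-OE points lie above both WT points in the 3 pairs, which share genes and are not separate observations. The gap is widest for YAB2 minus YAB6.

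The genes whose pattern over the 4 arrays was most like that of a called YABBY gene were found among 2200 named genes tested, by the distance between log2 signals after each gene's mean was subtracted. Nearest to YAB5 were GRF7 (LOC9268363), a growth-regulating factor, at a distance of 0.433, MCM7 (LOC4352514), a subunit of the replicative helicase, at 0.455, and Rbr1 (LOC4346176), a retinoblastoma-related cell cycle regulator, at 0.477. GRF7 had signals of 10.4 and 9.36 in WT and 159.5 and 115.2 in OsBIERF3-OE. These 3 genes were, like YAB5, below the no-target controls in WT and above them in OsBIERF3-OE, and each rose at least 4.48-fold by its brightest probe set. With all its probe sets averaged, the fitted log2 change of Rbr1 was 1.79, against 3.51 by the brightest. Nearest to YAB2 were the expansin-like gene EXLA3 (LOC4343213) at 0.063, the tubulin gene TUB7 (LOC4334309) at 0.073 and PHN1 (LOC9269490, also OsPNH1), an argonaute family gene of leaf formation, at 0.079. They rose 1.74-fold, 1.63-fold and 1.71-fold, and like YAB2 none of the 3 passed without WT replicate 2 or without OsBIERF3-OE replicate 2. EXLA3 and PHN1 also did not pass without WT replicate 1. Likeness over 4 arrays is a description, and for YAB5 it rests on WT signals that were not above background.

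DL (LOC4332058), the YABBY family gene of midrib and carpel, had signals of 34.3 and 37.7 in WT and 68.2 and 60.1 in OsBIERF3-OE. Both genotypes were above background on all arrays and did not overlap. It rose 1.78-fold (log2 change 0.83, limma adjusted p = 0.0202), but it did not pass whichever array was left out, with adjusted p between 0.056 and 0.0829.

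Other genes of leaf polarity and blade growth were taken from a list of 36 names, of which 15 genes were tested. Of these 15, 4 rose, 0 fell and 11 did not pass, where 17.2% of all genes rose and 31.8% passed in either direction, and the median log2 change was 0.06, against -0.04 over all genes tested. Beside DL, the genes that rose were RS2, a MYB gene of the Asymmetric leaves1 type that keeps meristem genes off in leaves, HOX33, an HD-Zip III gene of the upper leaf side, and ARF14, an auxin response factor. RS2 read 921.2 and 832.1 in WT and 1209.0 and 1428.9 in OsBIERF3-OE, a rise of 1.5-fold (limma adjusted p = 0.0314). With all its probe sets averaged, the log2 change of RS2 was 0.25 and did not pass. HOX33 read 357.0 and 324.2 against 568.1 and 635.0, a rise of 1.77-fold (limma adjusted p = 0.0128). ARF14 read 116.4 and 127.4 against 167.9 and 184.6, a rise of 1.45-fold (limma adjusted p = 0.0467). ARF14 passed in only 3 of 11 alternatives, and its call was lost with quantile normalization (0.0562), without the filter (0.0636), with dim signals raised (0.063) and whichever array was left out. The count of rises was 0 without WT replicate 2 or without OsBIERF3-OE replicate 2, 1 without WT replicate 1 and 2 without OsBIERF3-OE replicate 1. With the hybridization scaling 7 of the 15 rose and the median was 0.34, where that of all genes was 0.24. Calls over all probe sets in either direction also grew with that scaling, from 8331 to 9344. The share of all genes that rose was not computed for that scaling or for the fits without an array, so those counts have no background beside them.

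Genes of gibberellin synthesis and response were taken from a list of 27 names, because of the reported link to YAB1. Most of the names found no gene in the gene table. GA3OX1, GA3OX2 and GA2OX1 to GA2OX11 were among these, so those oxidase genes were not read. Of 11 tested, 0 rose, 3 fell and 8 did not pass, where 14.5% of all genes fell and 31.8% passed in either direction. The median log2 change of the 11 was -0.18, against -0.04 over all genes tested. With the hybridization scaling it turned to 0.11, where that of all genes was 0.24. The 3 that fell were GID1 (LOC4338764), the gibberellin receptor, 1.76-fold higher in WT (limma adjusted p = 0.0201), and KO2 and KS1, which encode ent-kaurene oxidase and synthase, 1.6-fold and 1.53-fold higher in WT (limma adjusted p = 0.031 and 0.0186). GID1 read 1450.3 and 1154.5 in WT and 780.5 and 689.6 in OsBIERF3-OE. With the hybridization scaling, without WT replicate 1, or without OsBIERF3-OE replicate 2, 0 of the 3 passed. SLR1, the DELLA repressor of the pathway, had a log2 change of 0.13 and did not pass (limma adjusted p = 0.573).

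Markers of other tissues were read beside these results. Their counts in the reported fit stand against 17.2% of all genes tested that rose and 14.5% that fell. These shares were not computed for the alternatives. OSH1, the KNOX gene that marks the shoot meristem, was at 4.41 to 5.22 and below the no-target controls on all arrays. In the meristem and KNOX list, 0 of 7 tested genes rose and 2 fell: OSH45, a class II KNOX gene, was 2.05-fold higher in WT, and LOG, of cytokinin activation, 2.26-fold. With the hybridization scaling 2 of the 7 rose and 2 fell, and without the filter 1 of 12 rose and 2 fell. The call of LOG was lost when WT replicate 2 was omitted (limma adjusted p = 0.0689). Of 15 flower identity genes with a probe set, 10 were below the controls on every array, and of 7 tested DL was the 1 that passed. MADS58 (log2 change -1.60, unadjusted p = 0.0134, limma adjusted p = 0.0532) and MADS1 (-1.13, unadjusted p = 0.0477, limma adjusted p = 0.125) were lower in OsBIERF3-OE without passing. MADS58 was above background on 0 of the 2 OsBIERF3-OE arrays, so its measured quantity is a bound of at least 1.89-fold higher in WT. MADS1 was above background on 1 of these 2 arrays. Without OsBIERF3-OE replicate 1, 2 genes of the flower list fell and 0 rose. Of 6 vascular genes, 0 passed by limma in either direction, and 2 of them, SUT1 and HOX32, had an unadjusted p under 0.05. Of 2 root genes 0 passed, with LSI1 under an unadjusted p of 0.05, and of 2 seed genes 0 passed and 0 were under it. In the mature leaf list RBCS, the small subunit of Rubisco, was at 17364.2 to 18252.1, and 3 of 6 genes fell, with PSAG 2.25-fold, PPDKB 1.69-fold and RCA 1.33-fold higher in WT. With all probe sets of a gene averaged, PSAG (log2 change -0.48) and GID1 (-0.42) did not pass. RCA did not pass whichever array was left out, and PPDKB did not pass without WT replicate 1 or without either OsBIERF3-OE array. With the hybridization scaling 1 of the 6 rose and 1 fell. On the deposited scale the summed signal of that list was 46356.6 to 46805.4 in WT and 41270.9 to 41280.5 in OsBIERF3-OE.

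Markers of dividing cells and young growing tissue were also higher in OsBIERF3-OE. All 20 genes of that list that were tested rose, where 17.2% of all genes tested rose. The median log2 change of the list was 3.59, against -0.04 over all genes tested. Of the list, CYCB1-1 and CYCB2-2, mitotic cyclin genes, rose 26.1-fold and at least 24.4-fold, and MCM3, a helicase subunit, rose at least 20.9-fold. The summed signal of the list was 706.6 to 773.9 in WT and 7316.3 to 7788.0 in OsBIERF3-OE. Some of its genes, CYCB2-2, MCM7 and GRF7 among them, were tested only because of their OsBIERF3-OE signals. Their mean log2 signals in WT alone lay below the filter of 12.3. With dim signals raised to the no-target controls the median of the list was 3.25 and the log2 change of YAB5 was 2.20. The log2 change of YAB2, bright on all arrays, was 0.77, and the smallest on the list was that of GRF5 at 0.91, also above background on all arrays. The part of a different share of dividing tissue in the YABBY values was not tested. For GAPDH the 3′ signal over the 5′ signal, a sign of RNA or cRNA integrity, was 12.78 and 11.15 in WT and 7.37 and 7.25 in OsBIERF3-OE, and its part was not tested either. The same log2 ratio differed between genotypes by -0.71 for GAPDH, by -0.55 and -0.85 for the actin controls, by -0.27 for ubiquitin and by 0.04 for cyclophilin.

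**Figure D4:**
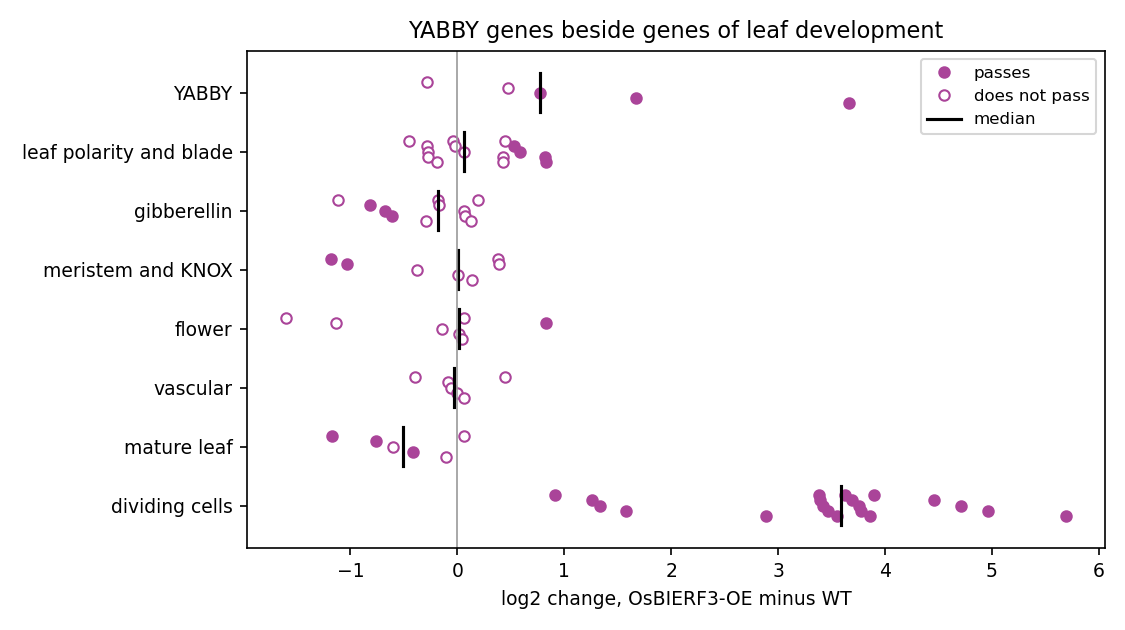
Log2 change (OsBIERF3-OE minus WT) of tested genes by list, 1 point per gene, filled where the limma adjusted p is under 0.05, with the median as a black bar. The YABBY genes spread from -0.28 to 3.66, the leaf polarity, gibberellin, flower and vascular medians lie between -0.18 and 0.06, and all 20 genes of dividing cells lie above 0.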

How the data were processed

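The authors deposited 1 signal intensity per probe set and array on a linear scale. Signals came from MAS5, the one tool listed, per the submitters' processing notes; background correction and normalization are not given in the sources used here. Sorted log2 values of each array lay within 0.0803 of the rank means, so their distributions were nearly equal. Hybridization controls were lower in OsBIERF3-OE in 26 of 27 probe sets (median log2 difference -0.31) and Bacillus poly-A controls in 36 of 36 (-0.65); only the first were tried as a scale. Summed signals ranged from 16286702 to 16466346.

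Values with a lower limit of 1 were put on the log2 scale. Without the 123 control probe sets, the upper 60% by mean log2 signal over the 4 arrays, 34355 probe sets, entered a limma fit on genotype alone (version 3.58.1, R 4.3.3, lmFit and eBayes with trend) with an adjusted p threshold of 0.05. The fit was run on simulated data to check that known log2 changes were recovered, which does not establish the share of false calls. The labels call replicates biological without naming separate plants, and the p-values reflect the spread between these arrays alone.

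Probe sets were named by gene ID through the platform table and RefSeq assembly GCF_034140825.1 (Python 3.11.15, pandas 2.3.3). A gene was read by its brightest probe set; probe sets with several genes were not named. Members, lists and tests were chosen with earlier results of these data known. The text names every YABBY gene and DL, up to 2 called genes per list with the largest change, and the 3 nearest profiles of YAB2 and YAB5; RS2, ARF14, KS1, SLR1, OSH1, RBCS, RCA, CYCB1-1, GRF5, MADS1, MADS58, SUT1, HOX32, LSI1 and the genes at YAB3 and YAB5 were chosen after their values were seen. List names were matched by symbol or synonym. After values were seen, 4 names were left out because the table's entry is, or may be, another gene. A fold is given as "at least" where a group was not above the no-target controls, comparing mean log2 signals after each dim array was raised to its control where it lay lower. No promoter or protein sequences were used here.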

Additional observations from a re-analysis of the deposited data

How the results depend on the processing

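YAB5 kept its direction and its call under all 11 alternatives, with log2 changes from 2.20 to 4.18, and YAB1 did not pass under any of them (0.13 to 0.76). The log2 change of YAB4 was 0.10 once dim values were raised to background. That of YAB6 was 0.01 when hybridization controls set the array scale, which moved the median of all tested probe sets from -0.04 to 0.25. With 1 array left out, the log2 change of YAB2 ranged from 0.65 to 0.89, and the call was lost when replicate 2 of either genotype was omitted. The number of YABBY genes called ranged from 1 to 3. It was 1 without OsBIERF3-OE replicate 2, where YAB4 fell below the filter. The number of probe sets called, 8331 with all arrays, was 3253 to 5988 with 1 array left out and 7306 to 9344 under the alternatives in filter, scale, probe set averaging and variance trend. Fits without an array leave 1 genotype with a lone array, assumed to vary like the others. With the replicate number as a block, 4540 probe sets and 2 YABBY genes passed, and the log2 change of YAB2 stayed at 0.77 with a limma adjusted p of 0.0696. Same-numbered arrays tended to deviate in opposite directions (correlation over tested probe sets -0.249). The labels do not say whether the numbers mark a batch, and this was not tested. With the numbers crossed, 12339 probe sets passed. That alternative was added after seeing the data and lies outside the 11 and outside the range of 1 to 3 above. Under it 4 of the 5 YABBY genes tested passed, all higher in OsBIERF3-OE, and the added gene was YAB1. Among named list genes refitted under 11 alternatives, CYCB2-2, MCM3 and OSH45 passed in all of them, RCA and PPDKB in 4 and ARF14 in 3. Signals near the no-target controls limit YAB4 and YAB7.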

Other observations

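The nearest protein-coding genes on either side of the YABBY genes in the RefSeq gene order were also read, 14 in all, of which 10 had a probe set and were tested. Of these 10, 1 rose, 1 fell and 8 did not pass, where 17.2% of all genes tested rose and 14.5% fell. The gene that rose lies beside YAB3, which has no probe set: LOC4349075 read 603.0 and 587.7 in WT and 906.3 and 840.4 in OsBIERF3-OE, a rise of 1.47-fold (limma adjusted p = 0.0228). The gene that fell lies beside YAB5: LOC4336515 read 959.0 and 785.0 in WT and 416.1 and 580.4 in OsBIERF3-OE, 1.77-fold higher in WT (limma adjusted p = 0.0399), while the gene on the other side of YAB5 had a log2 change of -0.52 and did not pass (limma adjusted p = 0.0837). Without WT replicate 1 neither of the called neighbours passed, with limma adjusted p of 0.086 for LOC4349075 and 0.148 for LOC4336515, and neither passed without WT replicate 2 (0.108 and 0.0836) or OsBIERF3-OE replicate 1 (0.0815 and 0.0935). LOC4336515 also did not pass with the hybridization scaling (log2 change -0.53, limma adjusted p = 0.128) or with all its probe sets averaged (-0.78, 0.0838). LOC4349075 passed under both. With the replicate number as a block neither passed (limma adjusted p = 0.0859 for LOC4336515 and 0.099 for LOC4349075). The neighbours of YAB4 and YAB7, which were below the no-target controls themselves, were all bright and did not pass.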
